A study of Mus musculus with 6 samples.

Results

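The 48 genes examined here are interferon response genes of the mouse: the receptors for type I and type II interferon, the transcription factors below them, sensors of viral RNA and DNA, and the antiviral effectors that interferon induces. They are a list of symbols that was chosen with earlier results of these data known. Shares of the list set beside those of all genes are therefore descriptive. All 48 were found among the 27179 gene IDs of the count files, and all had enough reads to be tested. Their RNA was measured in 3 groups of 2 libraries each, all from untreated mice. H7 tumours grew from PANC02-H7 cells and UNKC tumours from UN-KC-6141 cells, both of them mouse pancreatic carcinoma lines placed surgically into the pancreas of C57BL/6 mice, and the tumours were taken 20 days later. Normal whole pancreas of C57BL/6 mice was the comparison tissue. Each tumour line is a single line, and a tumour holds the cells of the host beside those of the line. The sex and age of the mice, and whether the replicates of a group came from separate mice, are not given, so the p-values measure only the spread between these libraries. The design compares each tumour with normal pancreas and the tumours with each other.

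Type I interferons (IFN-alpha and IFN-beta) bind a receptor made of Ifnar1 and Ifnar2, and the signal ends in a complex with Stat2 and Irf9 that binds interferon-stimulated response elements (ISRE). Type II interferon (IFN-gamma), made mainly by T and NK cells, binds a receptor made of Ifngr1 and Ifngr2, and its signal ends at gamma-activated sequences (GAS) and in induction of Irf1. The OAS, IFIT and MX families and Isg15 are classical targets of type I interferon, whereas the guanylate-binding proteins (GBP) and the immunity-related GTPases (IRG) are strongly induced by IFN-gamma.

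The tumour libraries held 33332516 to 40507546 reads in genes, and the normal pancreas libraries held 12077320 and 8204225, of which ribosomal RNA took 86.4% and 85.05%. The 48 genes together held 141051 and 241381 reads in H7 tumours, 252160 and 182291 in UNKC tumours, and 1166 and 1447 in normal pancreas. Values against normal pancreas therefore rest on few reads on the normal side, where 1 read pair is worth 0.926 or 0.954 CPM. CPM here are counts relative to the effective library size, which is the number of reads in genes times the TMM factor. The 8 acinar markers summed to 31.9 and 39.6 CPM in H7 tumours and 13.6 and 4.17 CPM in UNKC tumours, against 11843 and 11687 CPM in normal pancreas. Markers of skeletal muscle summed to 683 CPM in the second H7 library and 2425 CPM in the second UNKC library, against 11.01 and 1.84 CPM in the first ones and 11.1 and 3.82 CPM in normal pancreas. In such bulk samples, fewer cells of a type and less RNA per cell cannot be told apart.

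Interferon response genes were on the whole higher in both tumours than in normal pancreas, and all 12 genes of the GBP and IRG families rose in both. In H7 tumours 33 of the 48 genes rose and 1 fell (edgeR quasi-likelihood test, Benjamini-Hochberg adjusted p below 0.05 over 16306 genes), where 29.6% of all tested genes rose and 21.9% fell. In UNKC tumours 24 rose and 3 fell, where 29.1% of all tested genes rose and 19.3% fell. The median log2 fold change of the 48 genes was 1.81 in H7 tumours, with 0.34 over all tested genes, and 1.16 in UNKC tumours, with 0.42 over all tested genes. In UNKC tumours the balance moved with the scaling: upper-quartile factors gave 22 higher and 6 lower, and scaling to total counts gave 47 higher and 0 lower. Scaling to total counts also moved the median of all tested genes to 3.61 in H7 and 3.77 in UNKC tumours, so every fold change against normal pancreas given here is relative to TMM scaling. Without the first UNKC library 7 of the 48 genes fell in UNKC tumours, and in H7 tumours 0 fell without either H7 library and 2 without the first normal library.

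Set against each other, the tumours differed in both directions. H7 tumours were higher than UNKC tumours for 10 of the 48 genes and lower for 4, where 7.06% of all tested genes were higher and 11.1% lower. The 10 were Irf7, Ddx58, Dhx58, Oas2, Ifit1, Ifit2, Isg15, Usp18, Ifitm3 and Trim30a, and the 4 were Ifngr1, Ifih1, Iigp1 and Tgtp1. These calls changed with single libraries: without the first H7 library edgeR made 0 calls among the 48 genes, without the second H7 library 0 higher and 2 lower, without the first UNKC library 8 higher and 1 lower, and without the second UNKC library 3 higher and 2 lower. DESeq2 on all libraries gave 17 higher and 4 lower.

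**Figure D1:**
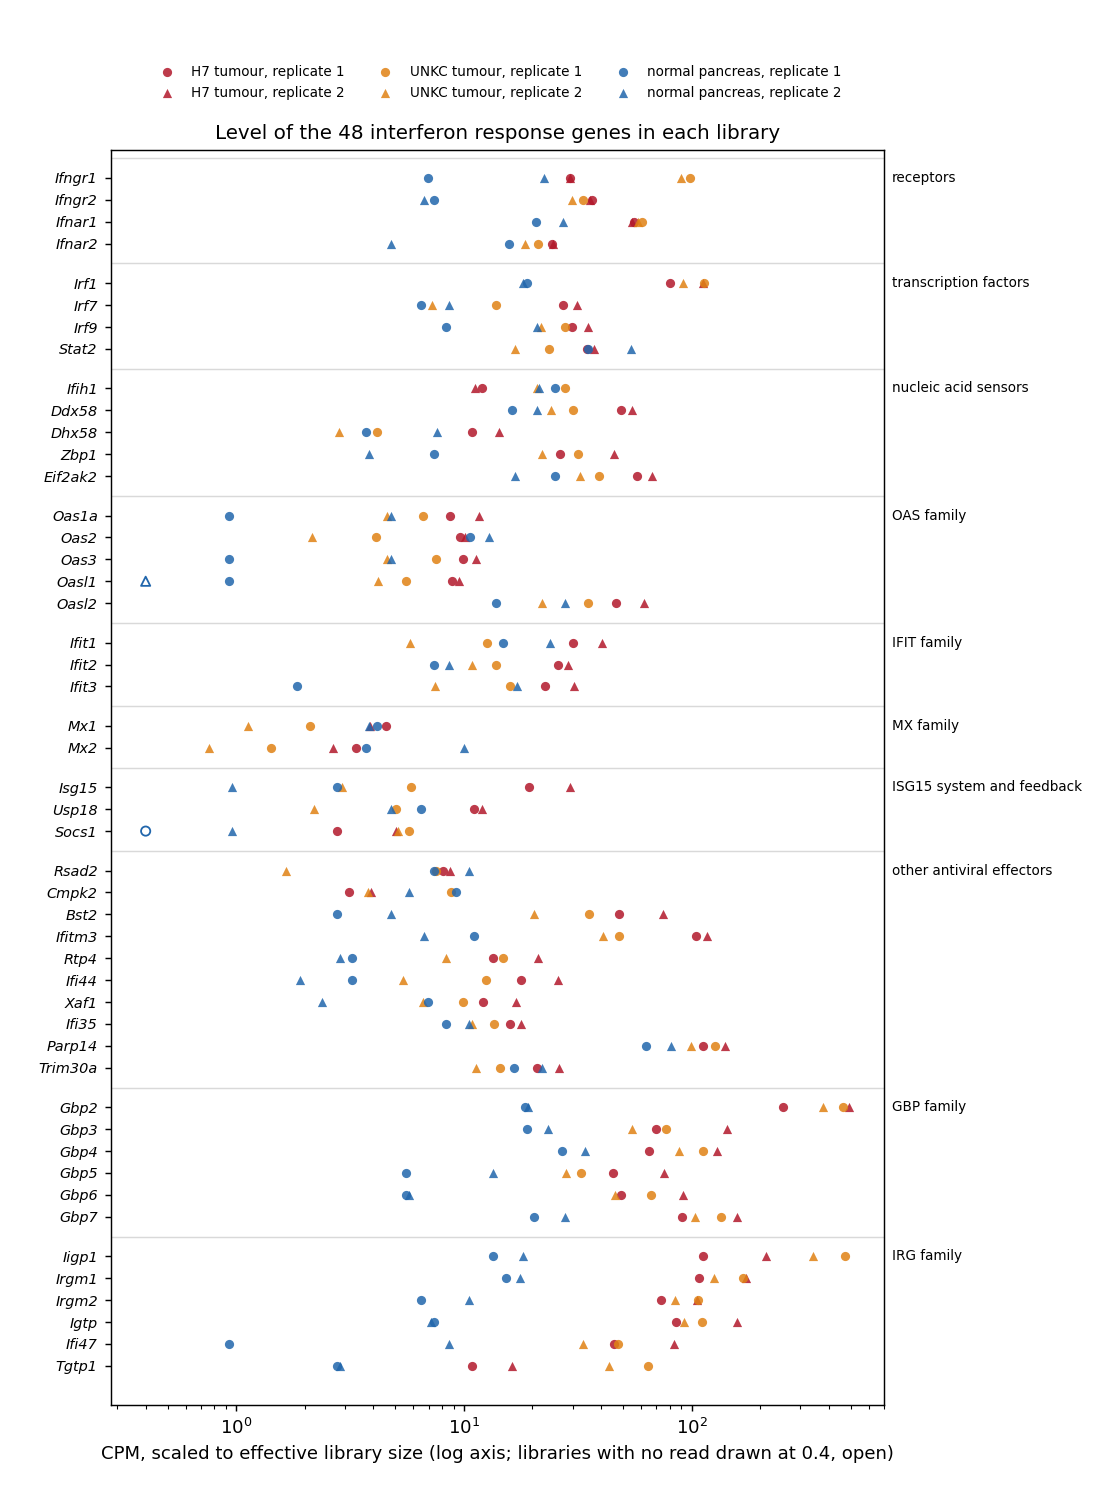
Level of each of the 48 genes in every library, in CPM on a log axis, with red for H7 tumours, orange for UNKC tumours, blue for normal pancreas, circles for the first and triangles for the second replicate, and open marks where a library held no read. The GBP and IRG rows at the bottom show both tumours to the right of normal pancreas in every library, whereas in the OAS, IFIT and MX rows the UNKC points lie among or below the blue ones for several genes.

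The calls of the 3 comparisons, of which those against normal pancreas share its libraries, fell into a few patterns, by edgeR on all libraries. Of the 48 genes, 20 rose in both tumours and did not pass the test between them. Another 6 rose in H7 tumours alone without a call between the tumours, and 4 (Irf7, Ddx58, Ifit2 and Isg15) rose in H7 tumours and were also higher there than in UNKC tumours. Dhx58, Ifit1, Usp18 and Trim30a passed only between the tumours, and Ifnar2, Irf9, Ifit3, Mx1, Rsad2 and Cmpk2 passed no test. DESeq2 also called Irf9 higher in H7 tumours, and Ifit1, Mx1 and Trim30a lower in UNKC tumours than in normal pancreas (1.013, -1.25, -1.49 and -0.77, DESeq2 adjusted p = 0.0283, 0.031, 0.0197 and 0.0196). Ifitm3 rose in both tumours and was higher in H7, while Iigp1 and Tgtp1 rose in both and were lower in H7. On all libraries no gene rose in one tumour and fell in the other, which Usp18 did without the first UNKC library.

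The interferons themselves were almost without reads. Of 12 interferon genes looked up, Ifng (IFN-gamma) alone had enough reads to be tested, and it passed no test. It held 22 and 72 reads in H7 tumours and 100 and 102 reads in UNKC tumours, against 0 in both normal libraries. Over each group that is 0.640 CPM in H7 and 1.15 CPM in UNKC tumours, both under the 1.41 CPM that a floor of 3 read pairs allows in normal pancreas, so no fold can be given. Ifnb1 (IFN-beta) had 5 reads in the first H7 library and 0 in the other 5 libraries, and the 5 IFN-alpha genes on the list had 0 reads in all 6. The markers of T and NK cells, the usual source of IFN-gamma, summed to 13.3 and 21.2 CPM in H7 tumours and 37.6 and 46.2 CPM in UNKC tumours, against 7.87 and 5.73 CPM in normal pancreas. Of those 13 markers, 2 rose in H7 and 4 in UNKC tumours, which is no more than the 29.6% of all tested genes that rose in H7 and close to the 29.1% in UNKC tumours, and 7 and 9 of them, Cd3d, Prf1 and Gzmb among these in both libraries, had no read in normal pancreas.

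Of the 4 receptor chains, 2 rose in H7 and 3 in UNKC tumours, where 29.6% and 29.1% of all tested genes rose. Ifngr2, the signalling chain of the IFN-gamma receptor, rose in both tumours, with log2 fold changes of 2.36 ± 0.17 in H7 and 2.16 ± 0.17 in UNKC tumours (SE of the fit, edgeR adjusted p = 0.000229 and 0.00031). Ifnar1, a chain of the type I receptor, stood at 55.9 and 54.5 CPM in H7 tumours and 60.6 and 58.1 CPM in UNKC tumours, against 20.8 and 27.2 CPM in normal pancreas. Its rise was 1.20 ± 0.16 in H7 and 1.31 ± 0.16 in UNKC tumours on the log2 scale (edgeR adjusted p = 0.00179 and 0.00142), and the tumours differed by -0.11 ± 0.15. Ifnar2, its partner, gave 1.25 ± 0.44 and 0.94 ± 0.44 and passed in neither tumour on all libraries (edgeR adjusted p = 0.0573 and 0.131). In H7 tumours it passed without the first or the second normal library (2.39 and 0.68, edgeR adjusted p = 0.000944 and 0.0162), and in UNKC tumours without the first (2.07, adjusted p = 0.00133).

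Ifngr1, the ligand-binding chain of the IFN-gamma receptor, was the receptor on which the tumours parted. It had 29.1 and 29.2 CPM in H7 tumours and 98.1 and 89.9 CPM in UNKC tumours, against 6.94 and 22.4 CPM in normal pancreas. The UNKC libraries lay above all others, and the H7 libraries lay just above the higher of the normal ones. Between the tumours the log2 fold change, H7 over UNKC, was -1.69 ± 0.41 (edgeR adjusted p = 0.0378), and the call was lost on leaving out any 1 of the 4 tumour libraries, with log2 values from -1.76 to -1.52 over all alternatives. Against normal pancreas it rose in UNKC tumours by 2.68 ± 0.45 (edgeR adjusted p = 0.00428), and its 0.99 ± 0.44 in H7 tumours did not pass (edgeR adjusted p = 0.11). In H7 tumours it did pass under total counts (4.19) and without the first or the second normal library (0.40 and 2.10).

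Promoter letters were searched in a window from 250 bases before to 50 bases after each transcription start, taken from RefSeq on the build GRCm38.p6. A window was found for 37 of the 48 genes. The ISRE was spelled GAAANNGAAA and the GAS was spelled TTCNNNGAA, each on both strands, and the motifs overlapped each other in 2 windows. ISRE letters were in 22 of the 37 genes (59.5%), with 3.99% of all 27025 genes with a window, and GAS letters were in 14 (37.8%), with 9.55% of all genes. ISRE letters were in all 3 sensors, all 4 GBP genes, both genes of the ISG15 system, 4 of 5 IRG genes, 2 of 3 IFIT, 2 of 4 OAS, 4 of 8 other effectors, 1 of 4 transcription factors and 0 of 4 receptors that had a window. A match in letters is a description of the sequence and not a measured binding site. Ifngr1 serves as the example of a window with neither, chr10:19591799-19591948 on the plus strand, the 150 bases just before its start, all in lower case because no motif falls in them.
Ifngr1: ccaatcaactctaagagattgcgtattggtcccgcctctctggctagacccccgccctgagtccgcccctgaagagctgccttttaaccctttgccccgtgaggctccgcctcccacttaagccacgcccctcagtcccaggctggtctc

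**Figure D2:**
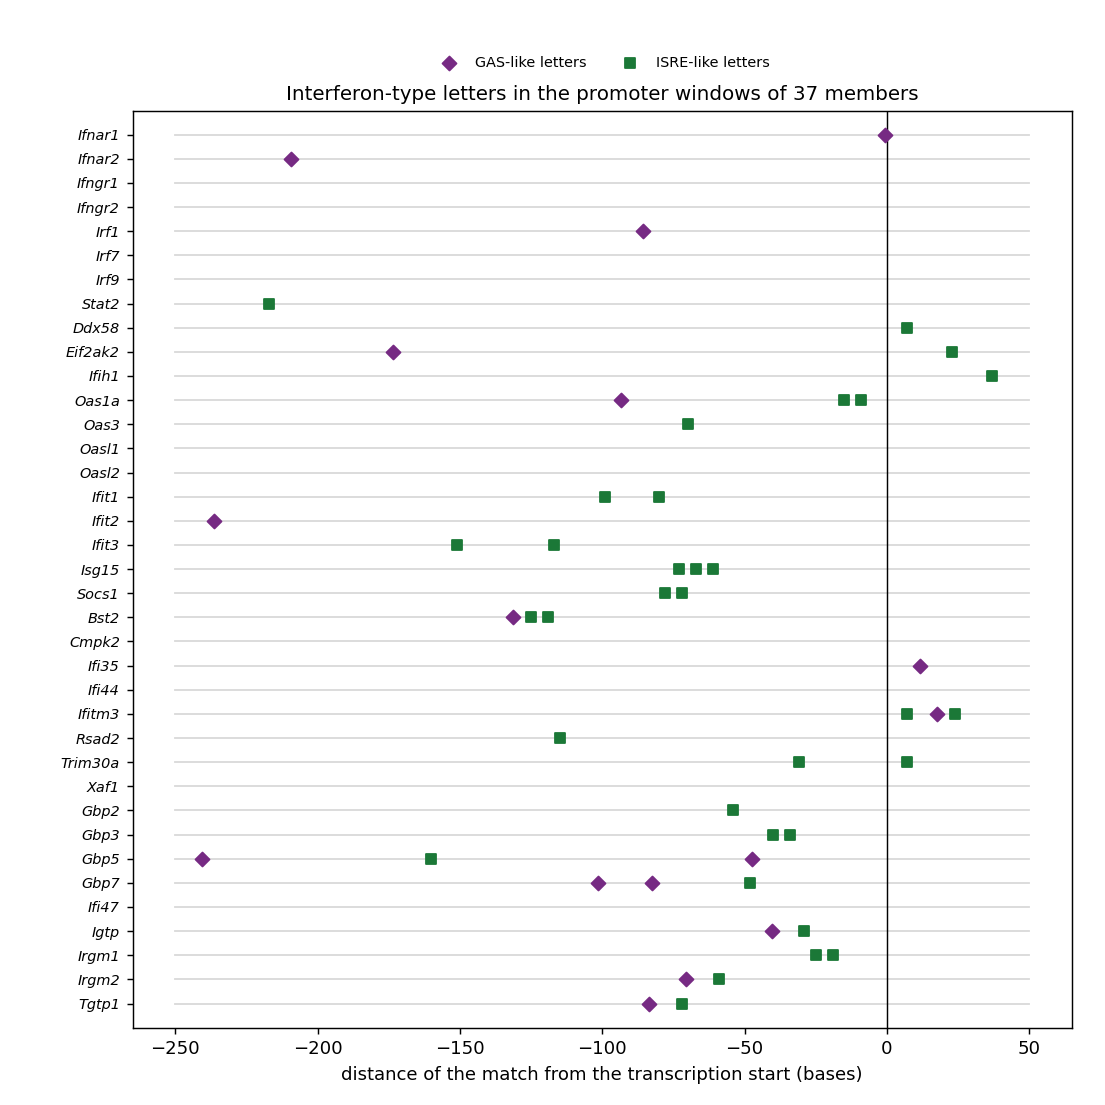
Position of ISRE letters (green squares) and GAS letters (purple diamonds) in the promoter windows of the 37 genes that have one, as distance in bases from the transcription start, which the vertical line marks. The sensors, GBP genes and ISG15 system have a green square in every row, and the receptors have none.

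Among the transcription factors, Irf1 rose in both tumours to nearly the same level. Irf1, a factor induced by IFN-gamma through a GAS, had 80.3 and 112 CPM in H7 tumours and 113 and 91.3 CPM in UNKC tumours, against 19.0 and 18.1 CPM in normal pancreas. The log2 fold changes were 2.38 ± 0.22 in H7 and 2.46 ± 0.22 in UNKC tumours (edgeR adjusted p = 0.000493 and 0.000477), and -0.09 ± 0.20 between them. Irf7, the factor that amplifies type I interferon production, stood at 27.1 and 31.4 CPM in H7 tumours and 13.9 and 7.21 CPM in UNKC tumours, against 6.48 and 8.59 CPM in normal pancreas. Its UNKC libraries overlapped the normal ones and its H7 libraries lay above both, with 1.96 ± 0.39 in H7 tumours against normal pancreas (edgeR adjusted p = 0.00715) and 1.47 ± 0.33 between H7 and UNKC tumours (adjusted p = 0.0298). The call between the tumours was lost without either H7 library or the second UNKC library.

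Stat2 was lower in UNKC tumours than in normal pancreas. This partner of Irf9 had 34.8 and 37.3 CPM in H7 tumours and 23.6 and 16.8 CPM in UNKC tumours, against 35.2 and 53.9 CPM in normal pancreas. It fell in UNKC tumours (log2 fold change -1.14 ± 0.26, edgeR adjusted p = 0.0133), a call that was lost without the second UNKC library and turned to 2.17 under total counts. In H7 tumours its -0.30 ± 0.26 did not pass, and Irf9 itself, with 1.15 ± 0.39 in H7 and 0.76 ± 0.39 in UNKC tumours, missed the threshold in both (edgeR adjusted p = 0.0501 and 0.158). The H7 value of Irf9 lay at the threshold: it passed by DESeq2 (adjusted p = 0.0283), with no filter (0.0485) and in the authors' deposited table (0.0443), and without the second normal library Irf9 passed in both tumours (2.00 and 1.61, edgeR adjusted p = 0.00318 and 0.0062).

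Of the 5 sensors, 3 rose and 1 fell in H7 tumours, and 2 rose in UNKC tumours. Of all tested genes, 29.6% rose and 21.9% fell in H7 tumours, and 29.1% rose in UNKC tumours. The share of sensors that fell in H7 tumours was thus close to that of all genes. Zbp1, a sensor of Z-form nucleic acid, rose by 2.68 ± 0.43 in H7 and 2.25 ± 0.43 in UNKC tumours on the log2 scale (edgeR adjusted p = 0.00351 and 0.00707). Eif2ak2, the kinase PKR that stops translation on double-stranded RNA, had 57.5 and 67.0 CPM in H7 tumours and 39.2 and 32.2 CPM in UNKC tumours, against 25.0 and 16.7 CPM in normal pancreas. It rose by 1.58 ± 0.23 in H7 tumours and by 0.78 ± 0.23 in UNKC tumours (edgeR adjusted p = 0.0024 and 0.0337), and the UNKC call was lost under 11 of 17 alternatives, among them DESeq2 and the loss of either H7 library, the first UNKC library or the second normal library.

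The RIG-I-like receptors, which detect viral RNA in the cytoplasm, did not move together. Ddx58, which encodes RIG-I, had 49.2 and 54.6 CPM in H7 tumours and 30.02 and 24.2 CPM in UNKC tumours, against 16.2 and 21.0 CPM in normal pancreas. Dhx58, which encodes the regulator LGP2, had 10.9 and 14.2 CPM in H7 tumours and 4.14 and 2.83 CPM in UNKC tumours, against 3.70 and 7.63 CPM in normal pancreas. Ifih1, which encodes MDA5, had 12.03 and 11.2 CPM in H7 tumours and 27.8 and 21.0 CPM in UNKC tumours, against 25.0 and 21.5 CPM in normal pancreas. H7 tumours thus had the highest Ddx58 and Dhx58 and the lowest Ifih1, with no overlap with the UNKC libraries for any of the 3. H7 over UNKC, the log2 fold changes were 0.94 ± 0.18 for Ddx58, 1.85 ± 0.33 for Dhx58 and -1.07 ± 0.19 for Ifih1 (edgeR adjusted p = 0.0195, 0.0156 and 0.0147). Against normal pancreas, Ddx58 rose in H7 tumours (1.48 ± 0.20, edgeR adjusted p = 0.00169). By edgeR on all libraries Ifih1 was the sole one of the 48 genes that fell there (-1.001 ± 0.20, edgeR adjusted p = 0.00821). Its value turned to 2.30 under total counts. The fall of Ifih1 was lost without either H7 library. All 3 calls between the tumours were lost without either H7 library or without the first UNKC library, those of Ddx58 and Dhx58 also without the second UNKC library, and Ifih1 overlaps Gm39839 and Dhx58 overlaps Gm38483, whose reads cannot be told apart from theirs where the strand of counting is not given.

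Among the oligoadenylate synthetases (OAS), enzymes that answer double-stranded RNA, and relatives, 1 of 5 genes was called higher in H7 than UNKC tumours. Of all tested genes, 7.06% were. The log2 fold changes of the 5, H7 over UNKC, ran from 0.81 to 1.66, where the median over all tested genes was -0.02. Oasl2 had 46.5 and 61.8 CPM in H7 tumours and 35.2 and 22.1 CPM in UNKC tumours, against 13.9 and 27.7 CPM in normal pancreas. Oas2 had 9.60 and 10.1 CPM in H7 tumours and 4.10 and 2.14 CPM in UNKC tumours, against 10.6 and 12.9 CPM in normal pancreas. Of the family, 4 genes rose in H7 tumours, with log2 fold changes from 1.38 ± 0.38 for Oasl2 (edgeR adjusted p = 0.0257) to 4.28 for Oasl1, and Oas2 did not pass. In UNKC tumours Oasl1 alone rose, and Oas2 fell by 1.91 on the log2 scale (SE 0.38, edgeR adjusted p = 0.00778), a value that turned to 1.44 under total counts. Of all tested genes, 29.6% rose in H7 tumours, and 29.1% rose and 19.3% fell in UNKC tumours. The UNKC counts of the family were thus near those shares. Oas2 was also the sole OAS gene called between the tumours, at 1.66 ± 0.33 (edgeR adjusted p = 0.0217), a call lost without either H7 library. In H7 tumours 1 of the 5 genes rose when either H7 library or the first normal library was left out, and in UNKC tumours 3 rose without the second normal library.

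Oasl1, a translational repressor of Irf7 in the mouse, was near the limit of detection in normal pancreas. It had 8.86 and 9.49 CPM in H7 tumours and 5.59 and 4.18 CPM in UNKC tumours, against 0.926 and 0 CPM in normal pancreas, where it rested on 1 read pair. The ratio of the summed read pairs, scaled to effective library size, was 19.6 in H7 tumours (95% counting interval 3.50 to 774) and 10.5 in UNKC tumours (1.87 to 414). The interval covers counting error alone. Oas1a and Oas3, synthetases proper, each had 2 and 10 reads in the normal libraries. Their calls in H7 tumours (1.85 ± 0.58 and 1.91 ± 0.59, edgeR adjusted p = 0.0394 and 0.0368) and that of Oasl2 were lost without either H7 library or without the first normal library, and 57.6% of the 50-base words of Oas1a also occur in Oas1g.

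Of the 3 IFIT genes, whose proteins bind foreign RNA or hold back translation, 2 were called higher in H7 than in UNKC tumours. Of all tested genes, 7.06% were. The log2 fold changes of the 3, H7 over UNKC, ran from 1.14 to 1.94, where the median over all tested genes was -0.02. Ifit1 had 30.04 and 40.4 CPM in H7 tumours and 12.6 and 5.77 CPM in UNKC tumours, against 14.8 and 23.9 CPM in normal pancreas. Ifit2 had 25.8 and 28.6 CPM in H7 tumours and 13.8 and 10.8 CPM in UNKC tumours, against 7.41 and 8.59 CPM in normal pancreas. Normal pancreas thus lay between the tumours for Ifit1 and below both for Ifit2. H7 over UNKC, the log2 fold change was 1.94 ± 0.42 for Ifit1 and 1.14 ± 0.19 for Ifit2 (edgeR adjusted p = 0.0273 and 0.0111). Both calls were lost without either H7 library or without the second UNKC library. Ifit2 rose in H7 tumours against normal pancreas (1.77 ± 0.22, edgeR adjusted p = 0.0013), whereas Ifit1 passed in neither tumour by edgeR, at 0.87 ± 0.44 in H7 and -1.07 ± 0.44 in UNKC tumours (adjusted p = 0.149 and 0.0957). Ifit1 was called lower in UNKC tumours under 5 of 17 alternatives, among them DESeq2 and the loss of the first UNKC library (-1.72, edgeR adjusted p = 0.0253).

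Ifit3 could not be placed. It had 22.6 and 30.4 CPM in H7 tumours and 15.9 and 7.48 CPM in UNKC tumours, against 1.85 and 17.2 CPM in normal pancreas, and passed no comparison on all libraries. Without the second normal library it passed in both tumours (3.87 and 2.69, edgeR adjusted p = 0.0141 and 0.0451). Its 2 normal libraries were further apart than those of either tumour, and 51.2% of its 50-base words also occur in Ifit3b. The promoter of Ifit1 is shown because this gene had the second largest called rise of the 48 in H7 over UNKC tumours. It is the stretch chr19:34640739-34640888 on the plus strand, 150 bases that end at the start, with ISRE letters in capitals, which open 104 and 85 bases before the start.
Ifit1: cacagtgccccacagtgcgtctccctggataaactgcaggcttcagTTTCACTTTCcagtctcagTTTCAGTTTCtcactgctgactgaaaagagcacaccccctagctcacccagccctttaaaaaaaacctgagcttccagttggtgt

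The MX genes, dynamin-like GTPases that block viruses, were the lowest group in both tumours, and neither gene was called higher there than in normal pancreas. Mx1, which carries a disabling deletion in C57BL/6 mice, had 4.55 and 3.88 CPM in H7 tumours and 2.12 and 1.12 CPM in UNKC tumours, against 4.17 and 3.82 CPM in normal pancreas. Mx2 had 3.36 and 2.67 CPM in H7 tumours and 1.42 and 0.761 CPM in UNKC tumours, against 3.70 and 10.02 CPM in normal pancreas. For both genes the UNKC libraries were the lowest of the 6, while the H7 libraries overlapped normal pancreas for Mx1 and lay below it for Mx2. Mx2 fell in UNKC tumours (log2 fold change -2.65 ± 0.59, edgeR adjusted p = 0.012), a call lost without the second normal library and turned to 0.66 under total counts. Mx1 in UNKC tumours, at -1.299 ± 0.50 (edgeR adjusted p = 0.0782), was called lower by DESeq2 and without the first UNKC library. In H7 tumours edgeR and DESeq2 called 0 of the 2 genes, and 0 passed at an unadjusted p below 0.05, while Mx2 was called lower there without the first normal library. Between the tumours edgeR called 0, although both passed unadjusted and DESeq2 called both higher in H7, with edgeR log2 values of 1.38 ± 0.36 for Mx1 and 1.46 ± 0.47 for Mx2 (adjusted p = 0.0502 and 0.0864).

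Isg15, a ubiquitin-like protein that is attached to other proteins, gave the largest called rise of H7 over UNKC tumours. It had 19.3 and 29.3 CPM in H7 tumours and 5.87 and 2.92 CPM in UNKC tumours, against 2.78 and 0.954 CPM in normal pancreas. The H7 libraries stood clear of all others, whereas the lower UNKC library was close to the higher normal one, and normal pancreas rested on 6 and 2 reads. The log2 fold change was 3.69 ± 0.61 in H7 tumours and 1.23 ± 0.66 in UNKC tumours against normal pancreas (edgeR adjusted p = 0.00369 and 0.177), and 2.47 ± 0.43 between the tumours (adjusted p = 0.0136). Without either H7 library the call between the tumours was lost.

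Usp18, the protease that removes Isg15 and damps the type I receptor, was also highest in H7 tumours. It had 11.05 and 12.02 CPM in H7 tumours and 5.02 and 2.19 CPM in UNKC tumours, against 6.48 and 4.77 CPM in normal pancreas. Between the tumours it differed by 1.68 ± 0.40 on the log2 scale (edgeR adjusted p = 0.0379), and it passed in neither comparison with normal pancreas on all libraries, whereas without the first UNKC library it passed as higher in H7 and lower in UNKC tumours (1.06 and -1.34, edgeR adjusted p = 0.0422 and 0.0477), and without the second UNKC library as higher in H7 tumours (1.05, adjusted p = 0.0375). Its call was lost without either H7 library, the second UNKC library or the second normal library. Socs1, the inhibitor of JAK kinases that IFN-gamma induces, had 1 read pair in normal pancreas. Its ratios of summed read pairs, scaled to effective library size, were 8.52 in H7 tumours (95% counting interval 1.52 to 337) and 11.7 in UNKC tumours (2.09 to 464). It passed in both (edgeR adjusted p = 0.0373 and 0.0194), and the H7 call was lost under 8 of 17 alternatives, among them the loss of the second H7 library, either UNKC library or the first normal library. The UNKC call of Socs1 was lost without the first UNKC library.

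The promoter of Isg15 is shown because it held the densest run of ISRE letters, 3 matches that overlap in the stretch chr4:156200819-156200968 on the minus strand. The 150 bases end at the start, and capitals mark the run, which opens 78 bases before it.
Isg15: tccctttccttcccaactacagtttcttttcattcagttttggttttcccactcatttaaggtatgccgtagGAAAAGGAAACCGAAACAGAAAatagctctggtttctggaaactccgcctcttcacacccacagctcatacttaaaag

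**Figure D3:**
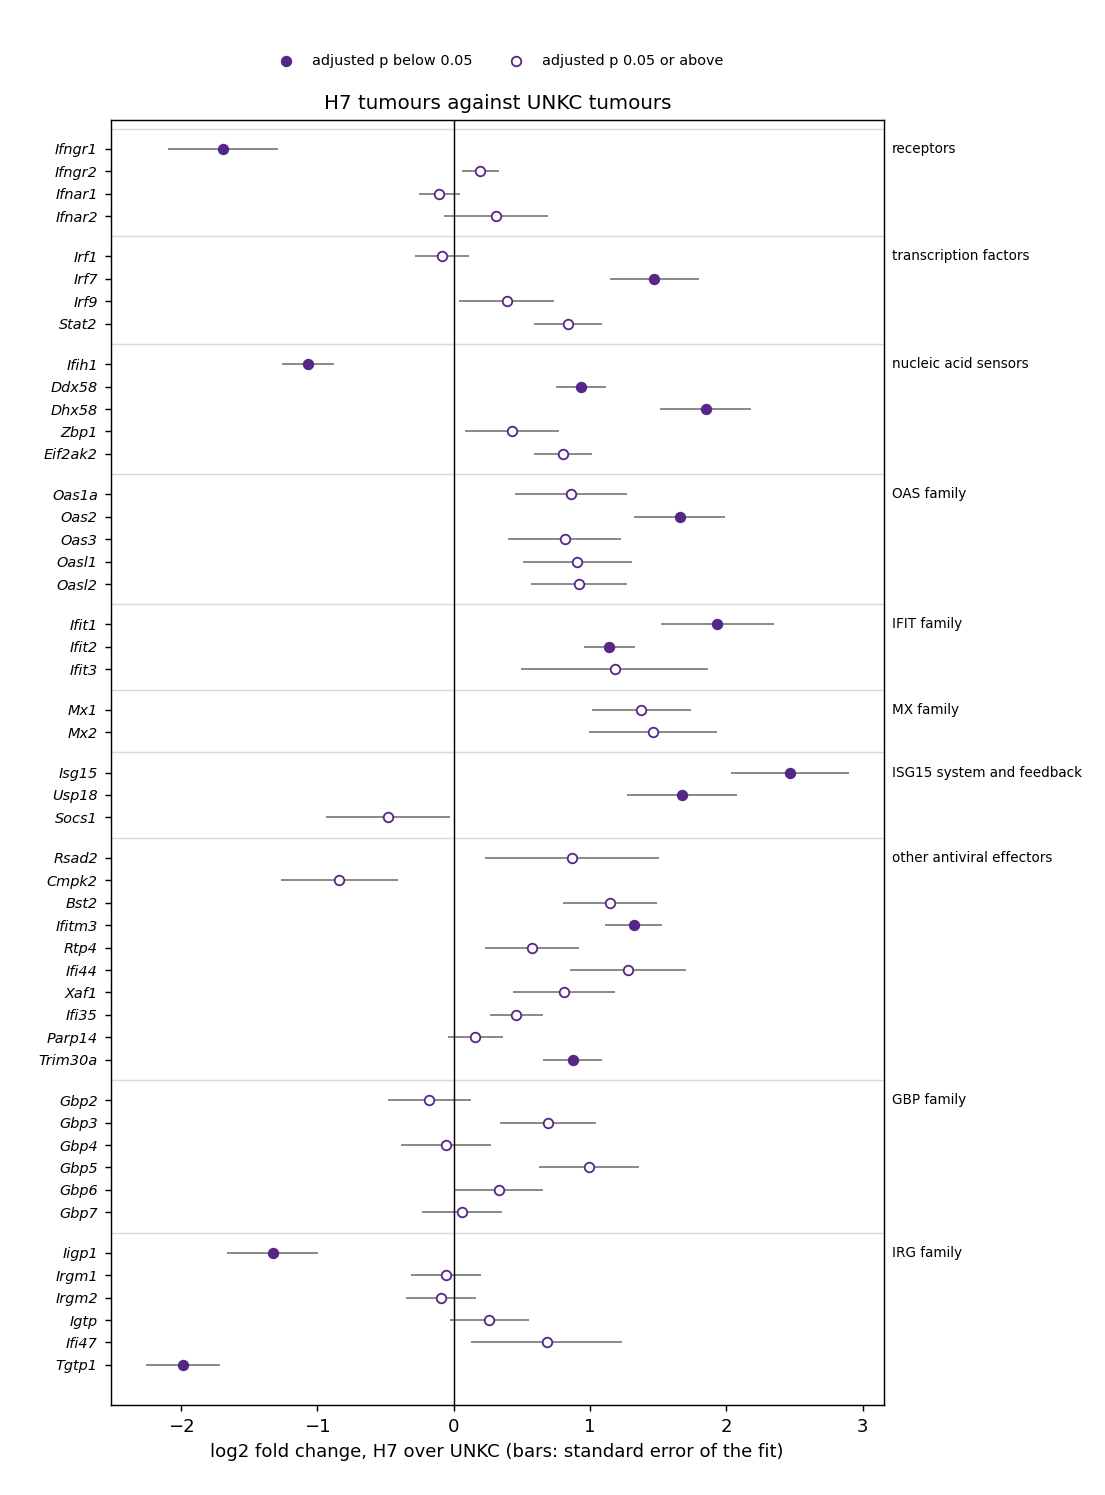
Log2 fold change of each of the 48 genes, H7 over UNKC tumours, with bars for the standard error of the fit, filled where the adjusted p was below 0.05. Filled points to the right run from 0.87 for Trim30a to 2.47 for Isg15, and filled points to the left from -1.07 for Ifih1 to -1.99 for Tgtp1. All 10 points of the OAS, IFIT and MX families lie to the right of 0, where the median over all tested genes was -0.02.

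Among the 10 other antiviral effectors, membrane proteins gave the largest rises. Ifitm3, which blocks viral entry at endosomes, had 105 and 117 CPM in H7 tumours and 48.1 and 40.8 CPM in UNKC tumours, against 11.1 and 6.68 CPM in normal pancreas. Each group stood apart from the others, in the order H7, UNKC and normal. The log2 fold change was 3.64 ± 0.25 in H7 and 2.32 ± 0.25 in UNKC tumours (edgeR adjusted p = 0.000208 and 0.000813) and 1.32 ± 0.21 between them (adjusted p = 0.0103), the last being lost without either H7 library or the first UNKC library. The UNKC call against normal pancreas was lost, at 0.67, when the trend on gene length was removed. Bst2 (tetherin), which holds budding virus at the cell surface, rose by 4.03 ± 0.46 in H7 and 2.88 ± 0.46 in UNKC tumours (edgeR adjusted p = 0.000979 and 0.00347). Per kilobase of exon, Ifitm3 was the most abundant of the 48 transcripts in H7 tumours (171 CPM per kb) and in normal pancreas (13.7 CPM per kb), and came after Gbp2 and Iigp1 in UNKC tumours (68.6 CPM per kb).

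Parp14, a mono-ADP-ribosyltransferase, was high everywhere and changed little. It had 112 and 140 CPM in H7 tumours and 127 and 99.7 CPM in UNKC tumours, against 63.0 and 81.6 CPM in normal pancreas. It passed at 0.81 ± 0.21 in H7 and 0.65 ± 0.21 in UNKC tumours (edgeR adjusted p = 0.0195 and 0.0432), and the UNKC call was lost under 13 of 17 alternatives, DESeq2 among them. The H7 call was lost without the second H7 or the first normal library. Rtp4, a chaperone of receptors, rose in both tumours (2.50 ± 0.48 in H7 and 1.92 ± 0.48 in UNKC tumours), but the UNKC call was lost without the first UNKC library or either normal library.

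Ifi44 (3.08 ± 0.60), Xaf1 (1.63 ± 0.48) and Ifi35 (0.84 ± 0.23) rose in H7 tumours and did not pass in UNKC tumours by edgeR on all libraries, where Ifi44 passed by DESeq2 and without the second UNKC library and Xaf1 without the first normal library. Xaf1, which encodes a partner of the apoptosis inhibitor XIAP, lost its call without either H7 library or the second normal library. Ifi35 lost it without either H7 library or the first normal library, and turned to -0.12 when the trend on gene length was removed. Trim30a, a member of the TRIM family, was higher in H7 than in UNKC tumours (0.87 ± 0.22, edgeR adjusted p = 0.0426), a call lost without any 1 of the 4 tumour libraries. Rsad2, the antiviral protein viperin, and its neighbour Cmpk2, a mitochondrial kinase of nucleotides, passed no comparison by edgeR on all libraries. Their log2 fold changes were -0.09 ± 0.75 and -1.09 ± 0.53 in H7 tumours and -0.96 ± 0.76 and -0.26 ± 0.52 in UNKC tumours. Cmpk2 was called lower in H7 tumours in the authors' deposited table (-1.06, DESeq2 adjusted p = 0.036) and with the 4 libraries of that comparison alone (-1.21, edgeR adjusted p = 0.0492). Without the first UNKC library Rsad2 was called lower in UNKC than in normal pancreas and higher in H7 than in UNKC tumours (-2.41 and 2.35).

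**Figure D4:**
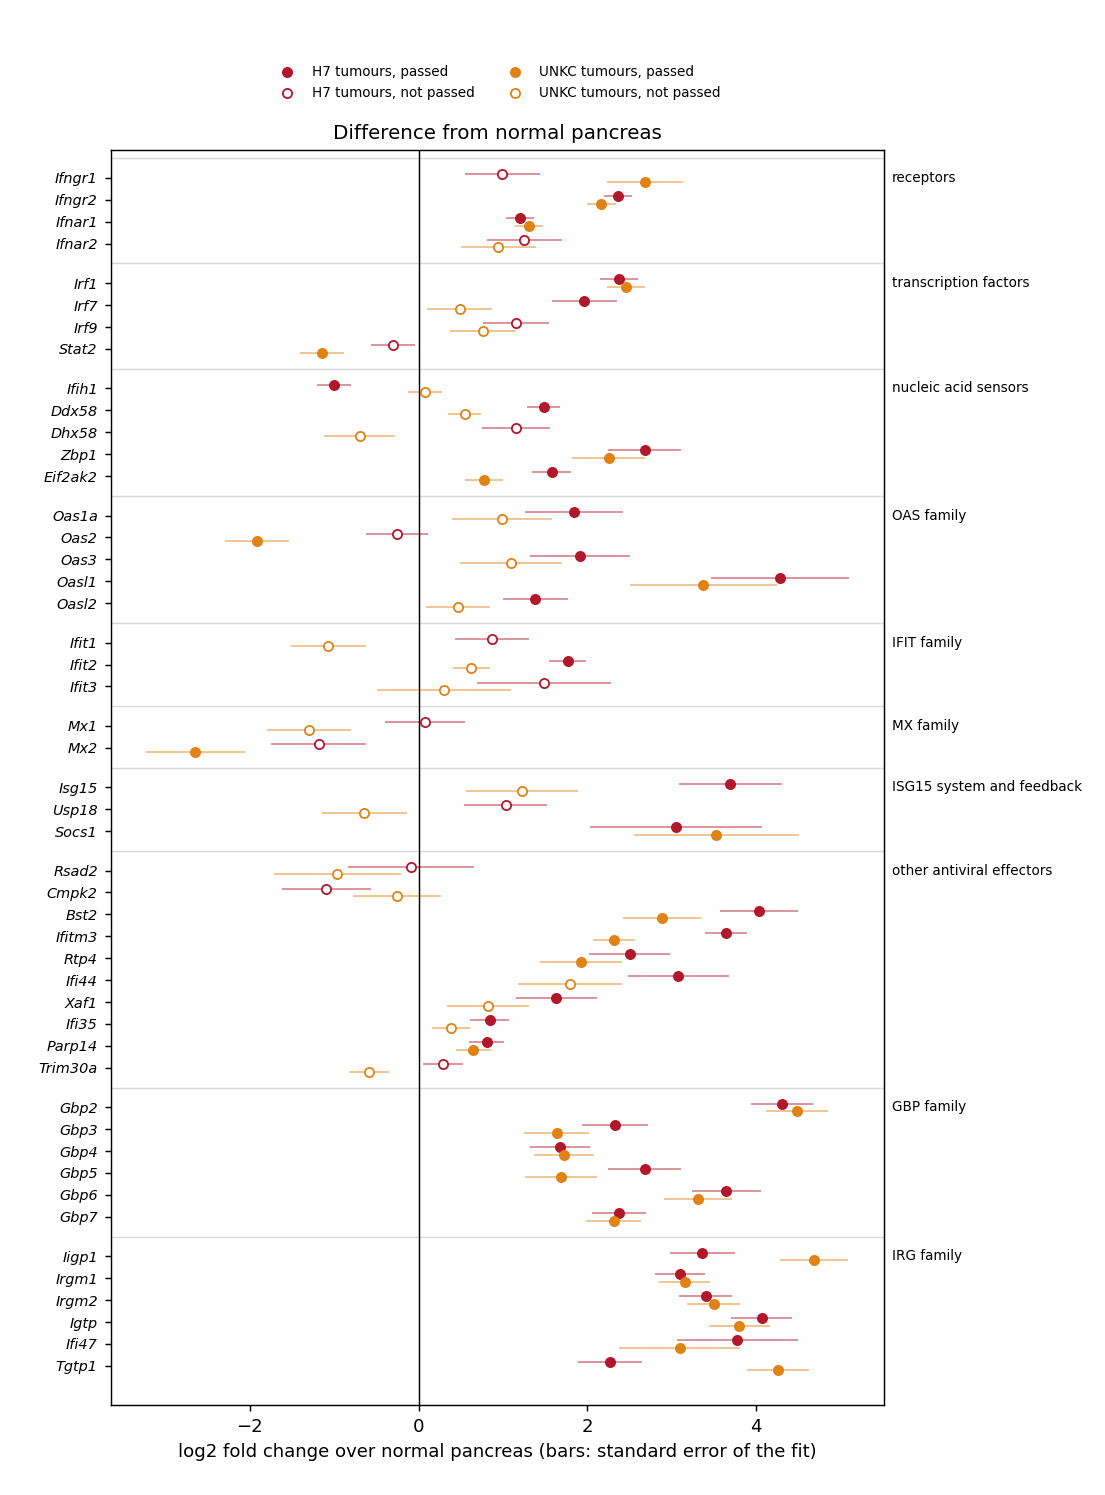
Log2 fold change over normal pancreas for each of the 48 genes, H7 tumours in red and UNKC tumours in orange, with bars for the standard error of the fit and filled points where the adjusted p was below 0.05. All 12 GBP and IRG genes at the bottom have filled points right of 0 for both tumours, while the OAS, IFIT and MX rows hold 5 filled red points and 3 filled orange ones, of which Oas2 and Mx2 lie left of 0 on this TMM scaling and right of it under total counts.

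All 6 guanylate-binding proteins, GTPases that attack the vacuoles of intracellular microbes, rose in both tumours. Gbp2 had 253 and 491 CPM in H7 tumours and 463 and 377 CPM in UNKC tumours, against 18.5 and 19.1 CPM in normal pancreas. Gbp7 had 91.2 and 158 CPM in H7 tumours and 134 and 104 CPM in UNKC tumours, against 20.4 and 27.7 CPM in normal pancreas. The tumours overlapped each other and were both far above normal pancreas. The log2 fold change of Gbp2 was 4.31 ± 0.37 in H7 and 4.48 ± 0.37 in UNKC tumours (edgeR adjusted p = 0.000366 and 0.000352), and that of Gbp7 was 2.37 ± 0.33 and 2.31 ± 0.32 (adjusted p = 0.00185 and 0.00217). The smallest rises of the family were 1.67 ± 0.36 for Gbp4 in H7 tumours and 1.64 ± 0.38 for Gbp3 in UNKC tumours (edgeR adjusted p = 0.0097 and 0.0148). Gbp4 lost its calls without the first normal library, and Gbp3 and Gbp5 lost theirs in UNKC tumours without the first UNKC or the first normal library. Removing the trend on gene length also lost the UNKC calls of Gbp3 and Gbp5. Of the 50-base words of Gbp6, 59.7% also occur in other genes, 51.5% in Gm43302, so its counts may hold reads of those genes.

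Gbp2, Gbp3, Gbp5 and Gbp7 lie together on chromosome 3, from Gbp5, which starts at 142496934, to Gbp2, which ends at 142638008, while Gbp4 and Gbp6 lie on chromosome 5 (GRCm38). Between the tumours edgeR called 0 of the 6 higher or lower, with 1 higher at an unadjusted p below 0.05 and 1 higher by DESeq2. The log2 fold changes, H7 over UNKC, ran from -0.18 ± 0.31 for Gbp2 to 0.99 ± 0.37 for Gbp5, whose adjusted p was 0.121. The 150 bases before the start of Gbp2, chr3:142620513-142620662 on the plus strand, hold 1 set of ISRE letters, in capitals. They are shown because Gbp2 was the most abundant member of the family.
Gbp2: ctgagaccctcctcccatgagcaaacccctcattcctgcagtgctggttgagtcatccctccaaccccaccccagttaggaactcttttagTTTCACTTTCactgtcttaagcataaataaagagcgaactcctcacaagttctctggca

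The immunity-related GTPases, which act beside the GBPs on such vacuoles in the mouse, also rose in both tumours, all 6 of them. Irgm1, a regulator of the other IRGs, had 108 and 174 CPM in H7 tumours and 167 and 125 CPM in UNKC tumours, against 15.3 and 17.7 CPM in normal pancreas. Igtp (Irgm3) had 85.1 and 158 CPM in H7 tumours and 111 and 92.2 CPM in UNKC tumours, against 7.41 and 7.16 CPM in normal pancreas. For both genes every tumour library was above every normal one, and the tumours overlapped. The log2 fold changes of Irgm1 were 3.10 ± 0.30 and 3.15 ± 0.30, and those of Igtp were 4.06 ± 0.36 and 3.80 ± 0.36, in H7 and in UNKC tumours (edgeR adjusted p from 0.000427 to 0.000549). Irgm2 and Ifi47 rose as well, by 3.40 ± 0.31 and 3.78 ± 0.72 in H7 tumours and by 3.49 ± 0.31 and 3.09 ± 0.72 in UNKC tumours. The normal libraries of Ifi47 lay far apart, with 2 and 18 reads. Its UNKC call was lost when the trend on gene length was removed.

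Iigp1 and Tgtp1, effector IRGs that load onto the vacuole membrane, were the 2 of the family on which the tumours parted, both lower in H7. Iigp1 had 113 and 212 CPM in H7 tumours and 473 and 340 CPM in UNKC tumours, against 13.4 and 18.1 CPM in normal pancreas. Tgtp1 had 10.9 and 16.3 CPM in H7 tumours and 64.1 and 43.6 CPM in UNKC tumours, against 2.78 and 2.86 CPM in normal pancreas. The 3 groups stood apart for each gene, in the order UNKC, H7 and normal, with the tumours in the opposite order to Ifitm3. H7 over UNKC, the log2 fold change was -1.33 ± 0.33 for Iigp1 and -1.99 ± 0.27 for Tgtp1 (edgeR adjusted p = 0.0441 and 0.00632). The Tgtp1 call held under 15 of 17 alternatives and was lost without the first H7 library, and that of Iigp1 held under 7, being lost without the first H7 library, either UNKC library or either normal library. Of the 50-base words of Tgtp1, 89.4% also occur in Tgtp2, so its counts may hold reads of that gene.

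Igtp, Irgm2 and Tgtp1 shared an arrangement of promoter letters that was noticed after the sequences had been read. In each, GAS letters open 11 bases before ISRE letters, an order found in 5 of 27025 genes (0.0185%), the others being Gm12185 and Tgtp2. The stretches of 150 bases before the start are shown with both motifs in capitals, for Igtp at chr11:58199406-58199555 and Irgm2 at chr11:58214827-58214976 on the plus strand, and for Tgtp1 at chr11:48992247-48992396 on the minus strand. Igtp and Irgm2 are neighbours with similar sequence (12.3% of the 50-base words of Igtp occur in Irgm2), so they are not independent cases. Nor are Tgtp1 and Tgtp2, as 89.4% of the words of Tgtp1 occur in Tgtp2. The stretch of Tgtp1 also shares the letters just before the GAS with those of Igtp and Irgm2. The bases after the start of Irgm2, unlike those of Igtp and Tgtp1, were not found near the opening of a transcript.
Igtp: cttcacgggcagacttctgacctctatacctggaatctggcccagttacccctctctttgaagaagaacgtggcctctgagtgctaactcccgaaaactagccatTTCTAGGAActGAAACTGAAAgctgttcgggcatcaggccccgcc
Irgm2: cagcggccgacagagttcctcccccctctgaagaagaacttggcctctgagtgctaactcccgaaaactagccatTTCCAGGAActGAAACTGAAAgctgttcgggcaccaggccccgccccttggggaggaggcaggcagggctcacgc
Tgtp1: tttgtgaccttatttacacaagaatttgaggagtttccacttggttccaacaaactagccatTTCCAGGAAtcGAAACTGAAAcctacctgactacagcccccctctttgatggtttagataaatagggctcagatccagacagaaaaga

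Grouped after their values were seen, the 12 GBP and IRG genes and the 13 genes of the OAS, IFIT and MX families and the ISG15 group gave different pictures. Of the 12, all rose in both tumours, with a median log2 fold change of 3.23 in each, and between the tumours 0 were higher and 2 lower in H7, with a median of 0.01 (by unadjusted p 1 higher and 2 lower, by DESeq2 the same). Of the 13, 7 rose and 0 fell in H7 tumours (median 1.48), 2 rose and 2 fell in UNKC tumours (median 0.46), and 5 were higher and 0 lower in H7 than in UNKC tumours (median 1.18). Of all tested genes, 29.6% rose and 21.9% fell in H7 tumours, and 29.1% rose and 19.3% fell in UNKC tumours. Between the tumours 7.06% were higher and 11.1% lower in H7, with a median of -0.02. In UNKC tumours the rises of the 13 were thus fewer than that share would give, and their falls were near it. The difference between the 2 groups of genes was not tested, because they were chosen with their values known. For the 12, between 9 and 12 rose in each tumour when any 1 library was left out. For the 13, leaving out 1 library gave 3 to 8 higher in H7 tumours, with 3 without the second H7 or the first normal library, and 0 to 7 higher in H7 than in UNKC tumours, with 0 without either H7 library and 2 without the second UNKC library. In UNKC tumours 1 of the 13 rose and 5 fell without the first UNKC library, and 5 rose and 1 fell without the second normal library.

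**Figure D5:**
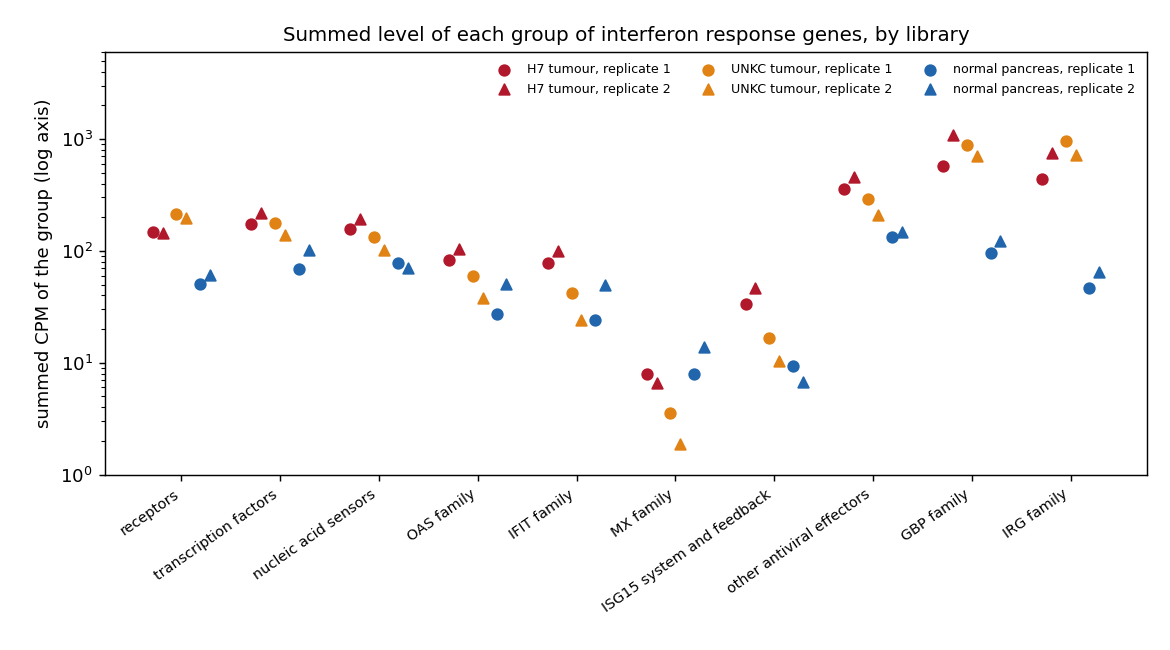
Summed CPM of each group of genes in every library, on a log axis, with red for H7 tumours, orange for UNKC tumours and blue for normal pancreas. The GBP sums were 573 and 1087 CPM in H7 tumours, 886 and 698 CPM in UNKC tumours and 95.8 and 123 CPM in normal pancreas, and the MX sums of UNKC tumours, 3.53 and 1.89 CPM, lay below all others.

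Between the 2 replicates of each tumour the genes of the list shifted together, so the replicates differed in its level. In H7 tumours 43 of the 48 genes were higher in the second library than in the first, with a median ratio of 1.32, of 1.90 for the GBP family and of 1.71 for the IRG family. In UNKC tumours 0 of the 48 were higher in the second library, and the median ratio was 0.716. In normal pancreas 31 were higher in the second, and over all tested genes the share was 50.9% in H7 tumours, 50.5% in UNKC tumours and 47.2% in normal pancreas. The second library of each tumour was also the one with muscle transcripts, and the list was higher in it for H7 and lower in it for UNKC tumours. Without these 2 libraries the fit kept a single residual degree of freedom. It called 0 of the 48 genes in any comparison, with 27, 22 and 2 of the 48 higher and 0, 2 and 4 lower at an unadjusted p below 0.05 in H7 against normal, UNKC against normal and H7 against UNKC tumours, and with median log2 fold changes of 1.63, 1.36 and 0.22.

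Markers of macrophages and monocytes also differed between the groups. The 12 markers summed to 1118 and 943 CPM in H7 tumours and 570 and 559 CPM in UNKC tumours, against 117 and 226 CPM in normal pancreas. Of these, 11 rose in H7 and 9 in UNKC tumours, where 29.6% and 29.1% of all tested genes rose. C1qb and Fcgr1 had no read in 1 normal library. Between the tumours 7.06% of all tested genes were higher and 11.1% lower in H7. Of the 12 markers, 3 were higher there (Csf1r, C1qa and C1qc) and 1, Cd14, was lower (-1.24 on the log2 scale). Of 7 neutrophil markers tested, 3 were higher in H7 than in UNKC tumours (Csf3r 2.40, Cxcr2 3.31 and S100a9 2.19 on the log2 scale). The marker Ngp was lower there (-4.69), with 0 and 2 reads in the H7 libraries. The list summed to 30.8 and 44.3 CPM in H7 and 8.55 and 6.93 CPM in UNKC tumours, against 8.79 and 33.9 CPM in normal pancreas. Of 6 epithelial markers, 0 were higher and 3 lower in H7 than in UNKC tumours (Cdh1 -2.39, Krt19 -1.93 and Krt18 -1.41), with sums of 389 and 380 CPM in H7 and 1069 and 899 CPM in UNKC tumours, against 221 and 155 CPM in normal pancreas. Of 7 fibroblast markers, 3 were higher and 0 lower in H7, Pdgfra (2.06) and Pdgfrb (2.41) among them, although the sums were 955 and 1800 CPM in H7 and 2500 and 4147 CPM in UNKC tumours, against 357 and 551 CPM in normal pancreas. The part of any of these cells in the values of the 48 genes was not tested.

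Around the 48 genes, other members of the pathway were read from lists of their own. Of 16 genes of JAK-STAT signalling and interferon-regulated factors, 9 rose and 2 fell in H7 tumours, where 29.6% and 21.9% of all tested genes did. In UNKC tumours 8 rose and 3 fell, where 29.1% and 19.3% of all tested genes did, so the share that fell was close to that of all genes. Only 1 was higher in H7 than in UNKC tumours, which is close to the 7.06% of all tested genes. Socs3, a feedback inhibitor, had 25.9 and 26.5 CPM in H7 tumours and 26.9 and 32.9 CPM in UNKC tumours, against 0 and 2.86 CPM in normal pancreas, and rose in both (edgeR adjusted p = 0.0035 and 0.00307). Batf2, an interferon-induced factor with no read in normal pancreas, was at least 6.18-fold higher in H7 and at least 3.99-fold higher in UNKC tumours, against a floor of 3 read pairs over the normal group. Irf2, a repressor of interferon targets, had 9.82 and 10.4 CPM in H7 tumours and 9.09 and 10.7 CPM in UNKC tumours, against 38.4 and 21.9 CPM in normal pancreas, and fell in both (-1.58 and -1.61). Irf3 fell in H7 and in UNKC tumours (-0.61 and -0.74), the kinase Tyk2 fell in UNKC tumours (-0.78) with -0.36 in H7 tumours that did not pass, and the phosphatase Ptpn6 was higher in H7 than in UNKC tumours (1.15).

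Upstream, 9 of 18 genes of nucleic acid sensing rose and 1 fell in H7 tumours, where 29.6% and 21.9% of all tested genes did. In UNKC tumours 6 rose and 2 fell, where 29.1% and 19.3% of all tested genes did, so the share that rose was close to that of all genes. Between the tumours 4 were higher and 1 lower in H7, where 7.06% and 11.1% of all tested genes were. Tmem173, which encodes STING, rose in both (2.05 and 1.97), as did Trex1, a DNA exonuclease (2.30 in H7 and 1.49 in UNKC tumours, edgeR adjusted p = 0.00905 and 0.0498). Tlr7 and Tlr9, endosomal receptors of nucleic acid, were higher in H7 than in UNKC tumours (1.49 and 1.76), and Tlr7 and Tbk1 fell in UNKC tumours (-1.58 and -0.61). Tlr4, which is on the list but is not a receptor of nucleic acid, rose in H7 and in UNKC tumours (1.57 and 2.19).

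Downstream, 19 of 30 chemokines and other interferon targets rose and 0 fell in H7 tumours (edgeR, with 0 also at an unadjusted p below 0.05 and by DESeq2). In UNKC tumours 20 rose and 1 fell. Of all tested genes, 29.6% rose and 21.9% fell in H7 tumours, and 29.1% rose and 19.3% fell in UNKC tumours. Cxcl9, a T-cell chemokine induced by IFN-gamma, had 74.6 and 116 CPM in H7 tumours and 112 and 95.4 CPM in UNKC tumours, against 4.63 and 0 CPM in normal pancreas (log2 fold changes 5.35 and 5.47). Ifitm1 rose by 3.22 in H7 and 3.09 in UNKC tumours on the log2 scale. Between the tumours 2 were higher and 5 lower in H7, where 7.06% and 11.1% of all tested genes were. The share that was higher was thus close to that of all genes. Ccl5, a chemokine of T and NK cells, had 1.23 and 1.49 CPM in H7 tumours and 7.76 and 8.47 CPM in UNKC tumours, against 0 in both normal libraries, which makes it at least 5.75-fold higher in UNKC tumours than a floor of 3 read pairs in normal pancreas. Ccl5 and Nos2, the inducible nitric oxide synthase, were lower in H7 than in UNKC tumours (-2.57 and -2.86), while Slfn8 and Sp100 were higher (1.68 and 1.12), Sp100 also falling in UNKC tumours against normal pancreas (-1.21).

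The authors' deposited tables, made with DESeq2 on fragment counts, gave 31 of the 48 genes higher and 2 lower in H7 tumours and 20 higher and 3 lower in UNKC tumours at an adjusted p below 0.05. Of these, 30 and 20 of the higher and 1 and 3 of the lower calls were shared with the edgeR calls above.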

How the data were processed

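RNA of 6 mouse pancreas samples was sequenced, 2 H7 tumours, 2 UNKC tumours and 2 normal pancreata. Per the submitters' processing notes the reads were handled with STAR, featureCounts and DESeq2 1.18.1 on the build mm10. The deposited files hold raw counts of reads per gene ID, not normalized. In them both mates of a pair are counted, so 3 read pairs are 6 reads. The authors' deposited comparison tables give log2 fold changes, adjusted p-values and TPM values that the authors derived from counts and gene length; the TPM values were not used. Whether counting used strand is not given in the sources used here. Ribosomal RNA took 20.1% to 27.8% of the reads of tumour libraries.

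The 48 symbols were matched in the authors' tables and followed by gene ID. The members and lists were chosen with earlier results of these data known. Of the 27179 IDs, 16286 were named from the authors' tables, 9355 from RefSeq, and 1538 stayed unnamed. Counts of all 6 libraries were fitted with edgeR 4.0.16 in R 4.3.3 (quasi-likelihood test, TMM factors, low genes removed by filterByExpr), with Benjamini-Hochberg adjustment over the 16306 genes tested and a threshold of 0.05. No test was adjusted over the list alone. The 17 alternative settings included DESeq2 1.42.0. CPM are per effective library size. Counting intervals are exact binomial at 95% on read pairs and cover counting error alone.

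Values in each library are given for the 2 members of each role with the highest mean level and for the 3 largest rises and falls past the threshold in each comparison among members whose higher group reached 5 CPM; up to 2 rises and falls are named for each pathway list and comparison, by the same minimum. The fit was tested on simulated data. Values of some genes of the pathway lists are not reported here.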

Additional observations from a re-analysis of the deposited data

Results flagged for a closer look

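Each of the following genes had a different change in the 2 tumours, by the test of H7 over UNKC tumours itself (edgeR, adjusted p below 0.05). On the log2 scale, H7 tumours were higher for Irf7 (1.47), Ddx58 (0.94), Dhx58 (1.85), Oas2 (1.66), Ifit1 (1.94), Ifit2 (1.14), Isg15 (2.47), Usp18 (1.68), Ifitm3 (1.32) and Trim30a (0.87). They were lower for Ifngr1 (-1.69), Ifih1 (-1.07), Iigp1 (-1.33) and Tgtp1 (-1.99). All 10 genes in the first group lost their call without either H7 library. In the second group, Iigp1 and Tgtp1 kept theirs without the second H7 library, and no gene did without the first.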

How the results depend on the processing

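The counts of higher genes against normal pancreas moved by less than 1.5 times under most settings. Scaling to total counts gave 47 higher and 0 lower in UNKC tumours, 0 lower in H7 tumours, and 3 higher and 2 lower between the tumours. With it Ifih1 turned to 2.30 in H7 tumours, and Stat2, Oas2 and Mx2 to 2.17, 1.44 and 0.66 in UNKC tumours. Lower genes in H7 tumours were 2 with the 4 libraries of that comparison alone and 4 with tumours thinned to the depth of normal libraries outside ribosomal RNA. Lower genes in UNKC tumours were 6 with upper-quartile factors, 6 with DESeq2 and 7, beside 16 higher, with the trend on gene length removed. That last setting also left 2 lower genes between the tumours and turned Ifi35 to -0.12 in H7 tumours. DESeq2 gave 17 higher genes between the tumours.

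Leaving out 1 library gave 26 to 37 higher and 0 to 2 lower genes in H7 tumours, 18 to 27 higher and 2 to 7 lower in UNKC tumours, and 0 to 14 higher and 0 to 3 lower between the tumours. Where that left an arm with 1 sample, it was assumed to vary like the other groups. Without both second tumour libraries all of these counts were 0, with a smallest adjusted p of 0.068 among the 48 genes in H7 and 0.0752 in UNKC tumours, so no gene was called under every setting. The replicate block gave 35 higher genes with 1 lower for H7 tumours, 23 with 3 for UNKC tumours, and 11 with 4 between the tumours. It added Ifnar2 and Irf9 in H7 tumours (edgeR adjusted p = 0.0367 and 0.0449) and Eif2ak2 and Mx1 between the tumours, and lost Parp14 in UNKC tumours and Trim30a between the tumours. The samples share only a number: H7 and UNKC samples of the same number deviated together (r = 0.526), and neither did so with normal pancreas (r = -0.0122 and -0.0232). The cause of these shifts was not tested. Depth limits genes with few reads in normal pancreas, where tested genes had a median of 11 and 12 reads. Over all tested genes, upper-quartile factors gave 3738 higher with 4395 lower for H7 tumours, and 3702 with 3977 for UNKC tumours, where TMM gave 4819 with 3572 and 4738 with 3150.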
